A study of Astyanax mexicanus with 6 samples.

Results

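The p53 and RB pathways are the main brakes on division in vertebrate cells, and telomerase rebuilds the chromosome ends that shorten as cells divide. The genes described here are a named set of 9 from these systems: mdm2, mdm4, cdkn1a, ccng1, sesn1 and bbc3 around p53, rb1 and cdkn2a/b around RB, and tert for telomerase. They were taken by gene name from a table of 27420 genes, in which 8 of the 9 were found, each in 1 row. No row carried the name cdkn2a/b, which was not analysed here. All 8 genes passed the filter on low values and were tested.

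The libraries came from a pair of continuously growing cell lines of the fish Astyanax mexicanus. SFL was derived from surface fish liver and CFL from Pachón cavefish liver, in both cases from fish of 5 months (about 150 days post fertilization). SFL was sequenced in 3 libraries, at passage 45 for replicate 1 and passage 46 for replicates 2 and 3, and CFL in 3 libraries, at passage 50 for replicate 1 and passage 51 for replicates 2 and 3. Both lines were cloned by limiting dilution and grown in the same medium with insulin, epidermal growth factor and fish and bovine serum, and the Pachón donors, unlike the surface donors, were starved for a week before dissection. Each line is therefore a clone of 1 origin, and its libraries count here as repeat cultures, so the spread and the p-values cover culture and library preparation but not differences between fish. Line, donor and passage cannot be told apart. CFL is also described as hyperdiploid, while SFL has the usual chromosome number of the species.

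In mammals, p53 is kept low by Mdm2, which marks it for destruction, and by Mdm4, which blocks its activity. When p53 is active it switches on genes that stop the cycle (cdkn1a, ccng1), that buffer stress (sesn1) or that start cell death (bbc3), and it also raises mdm2, its own inhibitor. The Cdkn1a and Cdkn2 proteins block cyclin-dependent kinases and so leave RB able to hold back E2F, the factor that drives the genes of DNA replication. Cultured mammalian cells usually become immortal after losing one or both of these brakes and switching on telomerase, whereas in zebrafish many adult tissues keep expressing tert.

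Values are TPM, that is, the reads assigned to a transcript divided by its length and scaled to a total of 1000000 in each library. The depth of the libraries is unknown, so no counting error is given. Each library held 13254 to 13721 genes at 1 TPM or more, and the 10 highest genes took 9.49% to 11.6% of the total in SFL and 12.9% to 13.6% in CFL. Of 21 listed hepatocyte markers, 17 were found. Of these, 4 were at 1 TPM or more in all SFL libraries and 0 in all CFL libraries. The summed level of the 17 was 27.3 to 61.2 TPM in SFL and 0.58 to 0.96 TPM in CFL. ttr was listed at 0 throughout, and hnf4a, fabp10a, f2 and ambp stayed below 1 TPM. The 11 biliary or simple epithelial markers found, of 12 listed, summed to 7886 to 11410 TPM in SFL and 1479 to 1838 TPM in CFL. In each line 7 of the 11 were at 1 TPM or more in all libraries, while epcam, krt8 and sox9b stayed below 1 TPM in every library. Fibroblast or stellate markers summed to 356 to 1480 TPM in SFL and 686 to 1339 TPM in CFL, with 5 of 14 below 1 TPM throughout. Endothelial markers summed to 84.0 to 244 TPM in SFL and 55.2 to 74.9 TPM in CFL. Of these 10 markers, 7 stayed below 1 TPM in all libraries, and kdrl alone averaged 81.2 TPM in SFL and 62.1 TPM in CFL. The 7 leukocyte markers found, of 10 listed, summed to 0.82 to 1.15 TPM in SFL and 1.69 to 2.16 TPM in CFL. None of them was at 1 TPM in all libraries of a line. The part of these differences in the results that follow was not tested.

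Among the 8 genes, sesn1 was far higher in SFL and mdm2 was lower in SFL, and the other 6 did not pass the test. A gene was called at an adjusted p under 0.05 (Benjamini-Hochberg over 18489 genes, limma) and a fold change of 2 or more on the log2(TPM + 1) scale, and every log2 fold change is SFL over CFL. Of all tested genes, 20.6% were called, 11.7% as higher in SFL and 8.88% as higher in CFL, so 2 of 8 (25%) is close to the share of all genes and the count says nothing particular about the set. The libraries of the lines did not overlap for 2 of the 8 genes, against 53% of all tested genes. The 8 genes had a median log2 fold change of -0.06, and all tested genes one of 0.07. For any single gene, an exact permutation test of 3 libraries against 3 cannot give a two-sided p below 0.1, and the adjusted p-values rest on the limma model across all genes.

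**Figure D1:**
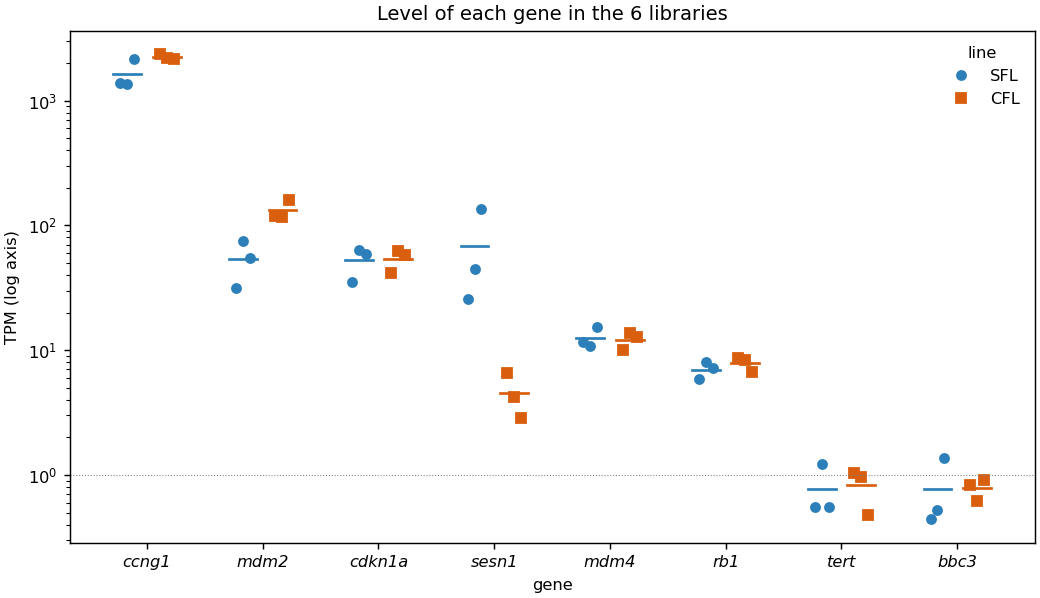
TPM of 8 genes (log axis) in the SFL libraries (blue circles) and the CFL libraries (orange squares), replicates 1 to 3 from left to right in each group; short lines are means of 3 libraries and the dotted line is 1 TPM. Only sesn1 and mdm2 have libraries that do not overlap between the lines, ccng1 lies at 1368 to 2339 TPM, and tert and bbc3 lie around 1 TPM.

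mdm2 (ENSAMXG00000034801), the ubiquitin ligase that removes p53, had 31.7, 74.9 and 55.1 TPM in SFL replicates 1, 2 and 3, against 119, 117 and 160 TPM in CFL replicates 1, 2 and 3. Every SFL library lay below every CFL library, and on the log2 scale the spread was wider in SFL, where replicate 1 was lowest. The mean was 53.9 ± 21.6 TPM in SFL and 132 ± 24.2 TPM in CFL (SD, n = 3 each), so CFL had 2.45 times the level of SFL. The log2 fold change was -1.34 (SE 0.33, 95% interval -2.12 to -0.57, limma adjusted p = 0.0198). The call was lost without CFL replicate 1, 2 or 3, where the log2 fold changes were -1.41, -1.42 and -1.20 and the limma adjusted p was 0.0559, 0.0584 and 0.0691, and each fit without 1 SFL library kept it. It was also lost without the filter on low values (adjusted p = 0.0613 in limma) and with the later passages alone, where the log2 fold change was -1.08 (adjusted p = 0.069 in limma). In a bulk library, fewer cells that express a gene and less of its RNA in each cell cannot be told apart.

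mdm4 (ENSAMXG00000029959), the partner of mdm2 that masks the activating part of p53, gave a different picture. It had 11.7, 10.8 and 15.3 TPM in SFL and 9.96, 13.7 and 12.7 TPM in CFL, and the lines overlapped. Its log2 fold change was 0.05 (SE 0.21 and adjusted p = 0.872 in limma), with a 95% interval of -0.45 to 0.55 that leaves out a 2-fold difference in either direction on this scale. The direction flipped with the scaling of the libraries.

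cdkn1a (ENSAMXG00000034881), the kinase inhibitor through which p53 halts the cycle, was well expressed in both lines. It had 35.3, 63.1 and 59.0 TPM in SFL and 41.3, 62.5 and 58.0 TPM in CFL. Replicate 1, the earlier passage, was the lowest library in each line, and the lines overlapped almost fully. The means were 52.5 ± 15.0 TPM in SFL and 53.9 ± 11.2 TPM in CFL (SD, n = 3 each), with a log2 fold change of -0.06 (SE 0.28 and adjusted p = 0.88 in limma) and a 95% interval of -0.73 to 0.60. The gene thus lay at the 83.7th to 90.4th percentile of tested genes in every library.

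ccng1 (ENSAMXG00000018968), which encodes cyclin G1, a p53 target in mammals that recruits a phosphatase to Mdm2, was among the most abundant transcripts of both lines. It had 1384, 1368 and 2171 TPM in SFL and 2339, 2210 and 2148 TPM in CFL, which placed it between the 80th and the 115th highest of the 27420 genes. CFL varied little, with 2232 ± 97.3 TPM (SD, n = 3), while SFL had 1641 ± 459 TPM and its replicate 3 fell among the CFL libraries. The log2 fold change of -0.48 (SE 0.22 and adjusted p = 0.142 in limma) did not pass the test. Without SFL replicate 3 it was -0.70 with a limma adjusted p of 0.0165, still under a 2-fold change.

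sesn1 (ENSAMXG00000014676), a sestrin that restrains the growth kinase complex mTORC1 when amino acids are short or cells are stressed, differed most. It had 25.5, 44.7 and 136 TPM in SFL, against 6.55, 4.25 and 2.87 TPM in CFL. All SFL libraries were above all CFL libraries, with replicate 3 highest in SFL and lowest in CFL. The mean was 68.9 ± 59.2 TPM in SFL and 4.56 ± 1.86 TPM in CFL (SD, n = 3 each), a ratio of 15.1, and the log2 fold change was 3.36 (SE 0.60, 95% interval 1.94 to 4.78, limma adjusted p = 0.00626). It was called in all 15 alternative fits, with log2 fold changes of 2.7 (without SFL replicate 3) to 4.14 (later passages alone). The size is less certain than the direction, because the SFL libraries differed 5.34-fold among themselves. The SD of sesn1 in SFL on the log2 scale, 1.21, exceeded that of 97.0% of the 500 tested genes nearest to it in mean level.

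bbc3 (ENSAMXG00000035212), which encodes Puma, the protein that starts mitochondrial cell death in response to p53, was barely detected. It had 0.44, 0.52 and 1.36 TPM in SFL and 0.83, 0.62 and 0.91 TPM in CFL, with SFL replicate 3 the only library above 1 TPM. The lines overlapped, and the log2 fold change was -0.04 (SE 0.21 and adjusted p = 0.885 in limma). At values this near the added 1 TPM the scale compresses differences: with 0.1 in place of 1 the SE was 0.44.

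rb1 (ENSAMXG00000005363), the retinoblastoma gene, had 5.83, 7.97 and 7.15 TPM in SFL and 8.66, 8.34 and 6.72 TPM in CFL. The lines overlapped, since CFL replicate 3 lay below SFL replicates 2 and 3. The log2 fold change was -0.16 (SE 0.20 and adjusted p = 0.548 in limma), with a 95% interval of -0.63 to 0.31. Transcripts of rb1 were present at 6.98 ± 1.08 TPM in SFL and 7.91 ± 1.04 TPM in CFL (SD, n = 3 each), values in which a disabling mutation would not be seen.

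tert (ENSAMXG00000042832), the catalytic subunit of telomerase, was detected at a low level in every library. It had 0.55, 1.22 and 0.55 TPM in SFL and 1.03, 0.97 and 0.48 TPM in CFL. Neither line stood above the other, with the highest value in SFL replicate 2 and the lowest in CFL replicate 3. The mean was 0.773 ± 0.387 TPM in SFL and 0.827 ± 0.302 TPM in CFL (SD, n = 3 each), and the log2 fold change was -0.05 (SE 0.20 and adjusted p = 0.865 in limma, and an SE of 0.43 with 0.1 TPM added in place of 1). tert lay at the 21.2th to 28.1th percentile of tested genes and was the lowest in mean level of the 32 telomerase and telomere genes listed below.

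By level the genes fell into tiers that were nearly the same in both lines. ccng1 was highest in every library. In CFL, mdm2 came next with no overlap with cdkn1a, then mdm4, rb1 and sesn1, of which rb1 lay above sesn1 in every library. In SFL, sesn1, mdm2 and cdkn1a overlapped and could not be ordered, mdm4 lay below them and above rb1, and tert and bbc3 overlapped at the bottom of both lines. The change of place of sesn1, which averaged the 86.4th percentile in SFL and the 45.8th in CFL, was the main difference between these orders.

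**Figure D2:**
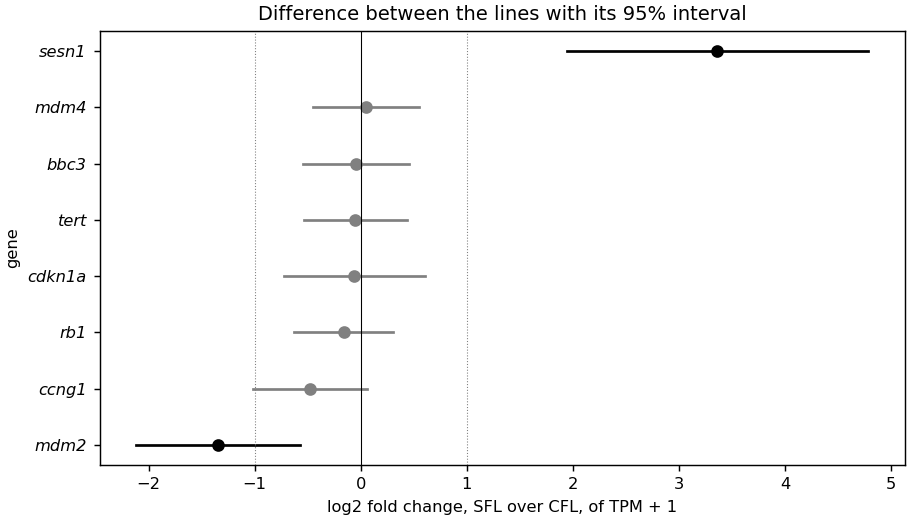
Log2 fold change (SFL over CFL, of TPM + 1) of 8 genes with 95% intervals from limma; black marks called genes, grey the others, and dotted lines a 2-fold difference. sesn1 at 3.36 and mdm2 at -1.34 are called, and the interval of ccng1, -1.01 to 0.06, is the only other one that reaches a 2-fold difference.

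The wider p53 network was described with lists of genes known from human and mouse cells. Of 24 tested p53 regulators, 2 were higher in CFL (mdm2 and ppm1da), where 8.88% of all tested genes were called higher in CFL. The median log2 fold change was near 0 (0.00058), against 0.07 over all tested genes. ppm1da (ENSAMXG00000001596), a copy of the gene for the phosphatase Wip1, which switches p53 signalling off again, was listed at 0 in SFL replicates 1, 2 and 3 and at 3.10, 3.07 and 2.91 TPM in CFL replicates 1, 2 and 3. It was called in all 15 alternative fits, with limma adjusted p from 3.6e-05 to 0.00592. The second copy, ppm1db, was present in both lines, at 12.2, 13.7 and 12.2 TPM in SFL and 9.24, 7.16 and 6.71 TPM in CFL. Its difference (log2 fold change 0.66, limma adjusted p = 0.0328) was under the fold threshold, and how reads shared by the copies were divided is not known. The kinases that report DNA damage to p53 did not pass the test: atm, atr, chek1 and chek2 had log2 fold changes of -0.15 to 0.06. The p53 relatives tp63 and tp73 stayed at or below 0.12 TPM in every library and were not tested.

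Targets of p53 moved in both directions. Of 17 tested targets that act in arrest and survival, 4 were higher in SFL (sesn1, rps27l, ccng2 and sesn2) and 1 in CFL (tigara), with 12 not called. That is 29.4% called, against 20.6% of all tested genes. rps27l (ENSAMXG00000042422), a ribosomal protein copy that p53 induces in human cells, had 3412, 3578 and 2465 TPM in SFL, against 970, 1126 and 914 TPM in CFL. Its log2 fold change was 1.64 (SE 0.21 and adjusted p = 0.00164 in limma), and it is close in sequence to other rps27 genes, so its level is uncertain. ccng2 (ENSAMXG00000013239), a second cyclin G, which is also known as a target of FOXO factors, had 49.5, 34.0 and 52.2 TPM in SFL, against 13.9, 18.1 and 14.8 TPM in CFL (log2 fold change 1.46 with SE 0.22, adjusted p = 0.0033 in limma). Cyclin G2 and cyclin G1 thus did not order the lines in the same way, with ccng2 higher in SFL and ccng1 not called.

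sesn2 (ENSAMXG00000020616), the other sestrin in the table and also a target of ATF4 in amino acid shortage, had 62.0, 38.3 and 43.6 TPM in SFL, against 19.3, 23.1 and 12.5 TPM in CFL. It rose in SFL like sesn1, but by less (log2 fold change 1.35 with SE 0.28, adjusted p = 0.0119 in limma), and SFL replicate 1 was the highest SFL library for sesn2 and the lowest for sesn1. With the later passages alone, sesn2 (limma adjusted p = 0.0829) and ccng2 (limma adjusted p = 0.0508) were not called. tigara (ENSAMXG00000036552), a copy of the gene for Tigar, which lowers glycolytic flux, went the other way, at 0.89, 1.32 and 0.77 TPM in SFL and 3.72, 5.97 and 6.63 TPM in CFL (log2 fold change -1.67 with SE 0.24, adjusted p = 0.00259 in limma).

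Of 12 tested apoptosis targets, 1 was higher in SFL (aifm2) and 2 in CFL (baxa and tp53i11b). Over all tested genes 20.6% were called, so this count is close to the share of all genes. aifm2 (ENSAMXG00000001966), also called Fsp1 and known for protecting cells from ferroptosis, had 10.3, 99.95 and 21.9 TPM in SFL, against 1.67, 0.72 and 1.21 TPM in CFL. Its log2 fold change of 3.78 (SE 0.75 and adjusted p = 0.0095 in limma) rested on SFL libraries that differed widely, with replicate 2 highest. baxa (ENSAMXG00000005183), the pore-forming executioner of mitochondrial death, had 9.81, 10.1 and 11.95 TPM in SFL, against 27.3, 27.2 and 21.0 TPM in CFL (log2 fold change -1.16 with SE 0.19, adjusted p = 0.00411 in limma), and was not called with the later passages alone (limma adjusted p = 0.0572). A second row named baxa (ENSAMXG00000037918) lay at 0.03 to 0.18 TPM and was not tested. How reads shared by these rows were divided is not known. tp53i11b (ENSAMXG00000031463), named after p53 induction in human cells, had 3.11, 4.03 and 5.47 TPM in SFL, against 19.0, 16.9 and 14.8 TPM in CFL (log2 fold change -1.80 with SE 0.23, adjusted p = 0.0016 in limma). The other copy, tp53i11a, was not called (log2 fold change -0.61, limma adjusted p = 0.0991). The medians were 0.07 for arrest and survival and 0.06 for apoptosis, against 0.07 over all tested genes. They ranged from -0.0485 to 0.351 for arrest and survival and from -0.124 to 0.142 for apoptosis in the 15 alternative fits. Both low ends came from leaving out SFL replicate 3, and the arrest and survival median was 0.349 without CFL replicate 1.

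**Figure D3:**
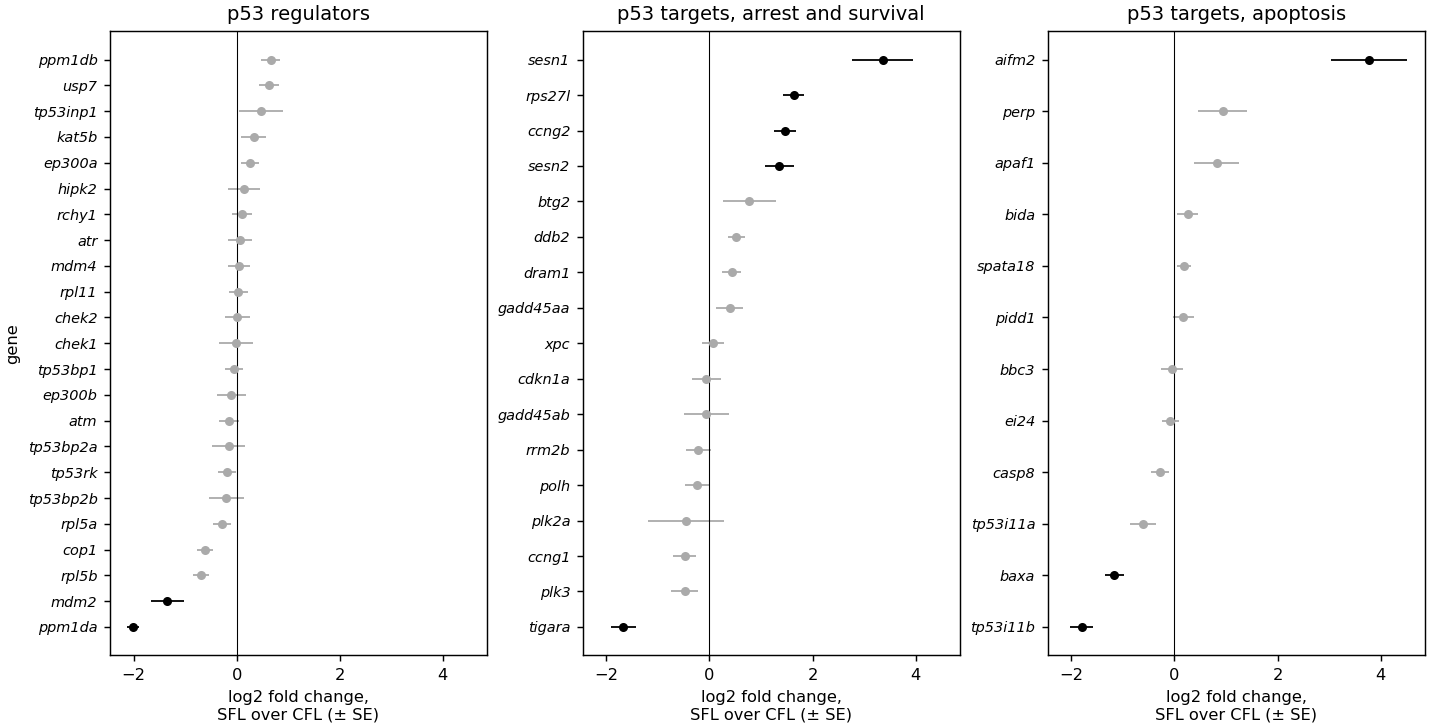
Log2 fold change (SFL over CFL, of TPM + 1) with its SE for genes of 3 p53 lists; black marks called genes. The target lists have called genes on both sides of 0; mdm2 lies at -1.34 among regulators, and sesn1 at 3.36 and tigara at -1.67 among arrest and survival targets.

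On the RB side, none of the 16 tested genes of the RB family and the kinase inhibitors was called by limma (0 of 16). Of all tested genes, 20.6% were called. By limma adjusted p alone, 0 of the 16 favoured SFL and 3 favoured CFL, where 34.7% of all tested genes passed in either direction. The count called higher in CFL was 3 with a pseudocount of 0.1, 2 with 0.5 or quantile normalization, and 1 with median-ratio scaling, without SFL replicate 2 or without SFL replicate 3. The median log2 fold change was -0.26, with 13 of 16 genes lower in SFL. Of the relatives of rb1, rbl1 had 3.44, 5.25 and 3.96 TPM in SFL and 9.16, 8.12 and 7.69 TPM in CFL, with no overlap. Its log2 fold change of -0.85 (limma adjusted p = 0.0179) passed the threshold for p but not that for fold. The 3 genes that passed by adjusted p alone, all higher in CFL, were rbl1, cdkn1ca and cdkn1d. cdkn1ca, a copy of the gene for the inhibitor p57, was listed at 0 in all SFL libraries and at 0.52, 0.67 and 0.81 TPM in CFL. The INK4 genes in the table, cdkn2c and cdkn2d, were expressed in both lines, at 2.07, 3.44 and 1.72 TPM in SFL and 0.98, 1.24 and 1.44 TPM in CFL for cdkn2c, and at 5.88, 5.11 and 10.95 TPM in SFL and 6.39, 8.87 and 7.73 TPM in CFL for cdkn2d. Neither passed the test (limma adjusted p = 0.0786 and 0.782).

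Downstream of RB, the genes called at the settings above were all higher in CFL. Of 28 tested G1 cyclin, kinase and E2F genes, 0 were called higher in SFL by limma and 2 in CFL, with a median of -0.22. That is 7.14% called, against 20.6% of all tested genes. By limma adjusted p alone, 1 favoured SFL and 5 favoured CFL, where 34.7% of all tested genes passed in either direction. With a pseudocount of 0.1 or 0.5, or without SFL replicate 3, 1 gene of this list was called higher in SFL. myca had 11.3, 11.6 and 6.55 TPM in SFL and 4.90, 4.10 and 4.43 TPM in CFL. Its log2 fold change of 0.95 (limma adjusted p = 0.0259) was under the fold threshold. ccnd2a (ENSAMXG00000013158), a D cyclin that activates the kinases which inactivate RB, had 14.2, 30.4 and 22.1 TPM in SFL, against 117, 125 and 121 TPM in CFL (log2 fold change -2.45 with SE 0.27, adjusted p = 0.00098 in limma). It was called in all 15 alternative fits. The other D cyclin at a comparable level, ccnd1, had 32.6, 50.8 and 40.1 TPM in SFL and 23.1, 24.8 and 52.7 TPM in CFL and did not pass the test (limma adjusted p = 0.438). cks1b, which helps to degrade the inhibitor p27, was the second called gene (log2 fold change -1.04 with SE 0.30, adjusted p = 0.0363 in limma), and it lost the call in 6 of 15 alternative fits, among them those without SFL replicate 1 or 3 and without CFL replicate 1 or 2 (limma adjusted p from 0.0207 to 0.197 over the 15).

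Of 29 tested E2F target genes, 5 were higher in CFL and 0 in SFL by limma, and 25 of 29 had a negative log2 fold change. By limma adjusted p alone, 7 favoured CFL and 0 favoured SFL, where 34.7% of all tested genes passed in either direction. The share called was 17.2%, against 20.6% of all tested genes. The median was -0.52, against 0.07 over all tested genes, and it stayed between -0.837 and -0.225 in the 15 alternative fits. The 5 were top2a (DNA topoisomerase), mcm2 and mcm6 (replicative helicase), ccna2 (cyclin A2) and lig1 (DNA ligase), with log2 fold changes of -1.29 to -1.05. The count depended on the setting: 0 genes were called with the later passages alone, 1 without the filter, without SFL replicate 1 or without CFL replicate 2, 2 without SFL replicate 3, CFL replicate 1 or CFL replicate 3, and 10 without SFL replicate 2. top2a kept its call in 14 of 15 alternative fits, mcm2 in 10, lig1 in 9, and ccna2 and mcm6 in 8 each. The exceptions in direction included pcna, the replication clamp, at 132, 286 and 131 TPM in SFL and 98.4, 112 and 114 TPM in CFL, which did not pass the test (limma adjusted p = 0.154). In the paper's growth measurements the doubling times of the lines were comparable, and SFL divided somewhat faster than CFL on average. How these transcript levels relate to growth was not tested.

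The E2F targets also set 1 SFL library apart. In 28 of the 29 genes SFL replicate 2 was the highest of the SFL libraries, where 34.6% of all tested genes were highest in that library. The median deviation from the SFL mean on the log2 scale was 0.53 in SFL replicate 2, -0.11 in replicate 1 and -0.44 in replicate 3, against -0.06 to 0.06 in the CFL libraries. Telomerase and telomere genes showed the same order among the SFL libraries, with 26 of 32 highest in replicate 2. mdm2, tert, cdkn1a and rb1 were likewise highest in SFL replicate 2, while ccng1, sesn1, bbc3 and mdm4 were highest in SFL replicate 3. The count of genes called higher in CFL over all pathway lists, 15 with all libraries, depended on which library was left out. It was 8, 23 and 11 without SFL replicate 1, 2 and 3, and 8, 7 and 10 without CFL replicate 1, 2 and 3. The count higher in SFL was 7 with all libraries and 7 to 9 in these fits. The part of replication gene level in the difference of mdm2 was not tested.

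Profiles over the 6 libraries near that of mdm2 were sought only among the genes of the pathway lists. Genes outside the lists were not compared. Among 156 other tested pathway genes, the smallest root mean square distance between mean-centred log2(TPM + 1) profiles was 0.24 for ccna2, then 0.27 for mcm2 and 0.38 for atrx, where mdm2 itself spanned 2.30. ccna2 had 16.8, 43.3 and 21.8 TPM in SFL and 62.9, 58.0 and 57.6 TPM in CFL, low in SFL replicate 1 and highest of SFL in replicate 2, as for mdm2. In CFL the likeness did not hold, since replicate 3 was the highest CFL library for mdm2 and the lowest for ccna2. sesn1 had no near profile among these genes: the closest was aifm2 at 1.14, and ccng2 lay at 1.20, where sesn1 spanned 5.15. With 6 libraries in a pair of groups such distances mostly reflect the difference between the lines.

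Of 32 tested telomerase and telomere genes, 1 was higher in SFL (smg6) and 3 in CFL (blm, ruvbl2 and gar1). That is 12.5% called, against 20.6% of all tested genes. The median was -0.31, against 0.07 over all tested genes. The count higher in CFL was 1 to 5 in the alternative fits, and 1 without SFL replicate 1, CFL replicate 1 or CFL replicate 2. ruvbl2, a helicase subunit (log2 fold change -1.12), lost its call in 7 of 15, among them each fit without 1 library other than that without SFL replicate 2. The proteins that bind the telomerase RNA were abundant in both lines, in contrast to tert: dkc1 (dyskerin) had 117, 222 and 109 TPM in SFL and 227, 203 and 173 TPM in CFL. gar1, a dyskerin partner, was called (log2 fold change -1.04 with SE 0.33, adjusted p = 0.0493 in limma) but only just, and it lost the call in 8 of 15 alternative fits. These proteins also serve ribosomal RNA modification and are not particular to telomerase. blm, the Bloom helicase, stood at 3.02, 3.40 and 2.55 TPM in SFL and 9.17, 7.75 and 8.17 TPM in CFL (log2 fold change -1.23 with SE 0.18, adjusted p = 0.00287 in limma, called in all 15 alternative fits). smg6, which acts in RNA decay and is related to the yeast telomerase factor Est1, had 6.94, 5.82 and 8.47 TPM in SFL and 3.08, 2.68 and 2.13 TPM in CFL (log2 fold change 1.15, limma adjusted p = 0.00666). atrx, whose loss accompanies telomerase-independent telomere upkeep in human tumours, was expressed in both lines, at 35.3, 50.2 and 64.2 TPM in SFL and 105, 100.6 and 88.2 TPM in CFL. Its log2 fold change of -0.99 (limma adjusted p = 0.0195) fell just under the fold threshold. In the other direction, wrn also lay just under this threshold, with a log2 fold change of 0.99 (limma adjusted p = 0.00535). wrn had 4.37, 5.19 and 3.9 TPM in SFL and 1.83, 1.77 and 1.65 TPM in CFL, with no overlap. With no fold threshold, the limma adjusted p alone picked 3 of the 32 genes of this list for SFL and 4 for CFL. Of all tested genes, 34.7% passed in this way in either direction. The shelterin genes terf1 and pot1 did not pass the test.

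**Figure D4:**
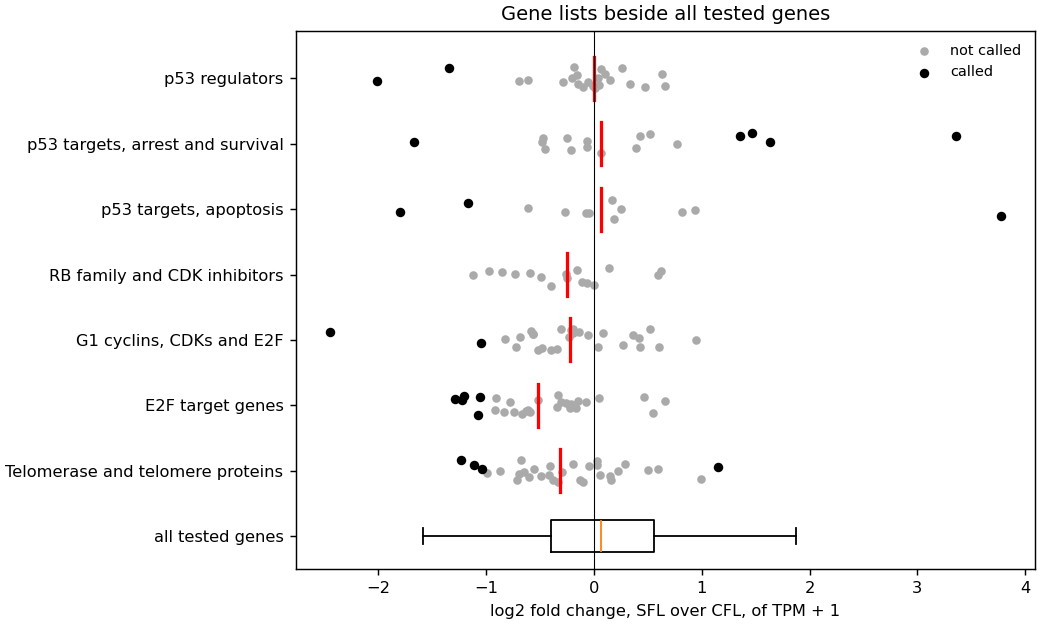
Log2 fold change (SFL over CFL, of TPM + 1) of genes in 7 lists; each point is a gene, black if called, and red lines are medians over all tested genes of a list. The box shows all 18489 tested genes (quartiles, whiskers at the 5th and 95th percentile); the 5 called E2F targets all lie below 0 and the median of their list is -0.52.

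Over all 7 lists together, 7 of 157 tested genes were called for SFL and 15 for CFL, that is 14% called, against 20.6% of all tested genes. The E2F target list held 5 of the 15 genes higher in CFL and 0 of the 7 higher in SFL, while the p53 lists held called genes of both directions.

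Because CFL carries extra chromosomes, each gene was set beside its neighbours, the 10 expressed genes on each side in the gene order of a surface fish assembly. The medians of the neighbours' log2 fold changes were small, from -0.21 next to mdm4 to 0.37 next to sesn1, where 0.07 was the median over 8248 placed genes. The neighbours of mdm2 had a median of 0.09, with 12 of 20 above 0, while mdm2 itself was at -1.34. Next to sesn1, 17 of 20 genes were above 0, with quartiles of 0.10 and 0.70, against 3.36 for sesn1. mdm2 lay below all 20 of its neighbours and sesn1 above all 20 of its own. The lowest neighbour of mdm2 was close to it, at -1.275, where the SE of mdm2 was 0.33. The highest neighbour of sesn1 was at 1.73. By whole chromosome, the medians for the 7 placed genes lay between -0.20 and 0.17, inside the range of -0.65 to 0.65 over 25 chromosomes. tert has no chromosome in the table used for that assembly and was not placed. Copy number was not measured in these libraries. By PCR the paper detected B chromosomes, which are supernumerary, in CFL, and it suspected that some of the extra chromosomes could be of this kind. Their part in these levels was not tested.

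**Figure D5:**
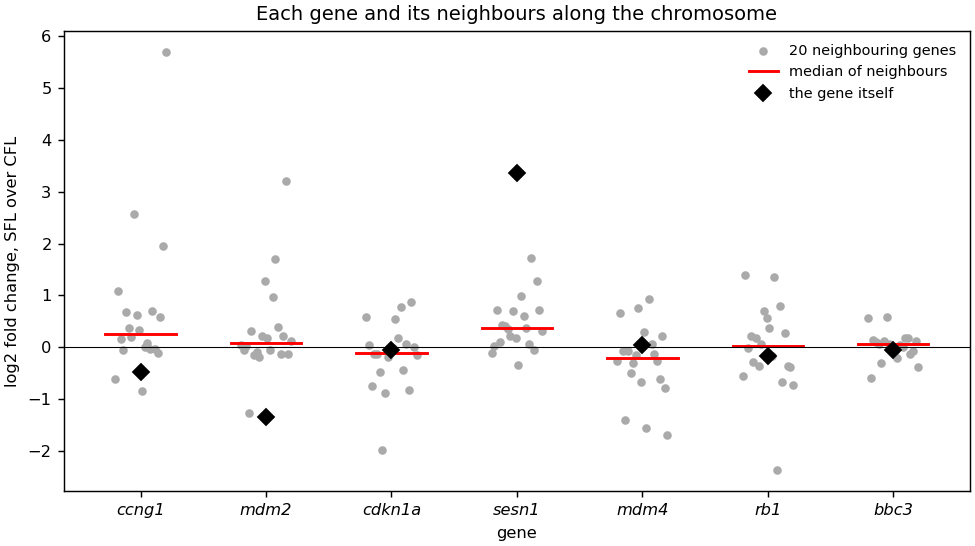
Log2 fold change (SFL over CFL) of 7 genes (black diamonds), of their 20 expressed neighbours along the chromosome (grey points) and the median of the neighbours (red lines). mdm2 lies below and sesn1 above all of their neighbours, whose medians are 0.09 and 0.37, while cdkn1a, mdm4, rb1 and bbc3 lie among theirs. The lowest neighbour of mdm2, at -1.275, is close to it.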

How the data were processed

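Polyadenylated RNA of SFL and CFL (3 libraries each) was sequenced as single reads from stranded libraries. The authors aligned reads with STAR (2.7.3a in the submitters' processing notes) to an Astyanax mexicanus genome whose assembly is not given in the sources used here, with Ensembl gene models, and estimated abundance with RSEM. The deposited values are TPM per gene and library, with no stated scaling between libraries. TPM holds no counts, so the authors' edgeR test could not be repeated and depth is unknown. The methods text describes RNA from tissues, but the library names and passages describe the lines, and the libraries were treated as such.

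Genes reaching 0.2 TPM in 1 or more libraries were compared as log2(TPM + 1) with limma 3.58.1 in R 4.3.3 (lmFit, eBayes with a trend, no block); intervals are 95%. Fold changes on this scale understate those of low genes. Code was tested on simulated data. Genes listed at 0 in a line are reported as such, with no fold. Tables were made in Python 3.11.15 with pandas 2.3.3. Replicate numbers were not taken as pairs. Same-numbered libraries deviated from their line means with correlations of -0.23, 0.08 and -0.07. Whether they shared a culture or preparation batch was not tested.

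The named set and the lists were chosen with earlier results of these data known. Named genes are the set, up to 5 called genes per list and direction without overlap, and the 3 nearest profiles within the lists. Added after their values were seen were ppm1db, the damage kinases, tp63, tp73, tp53i11a, the RB relatives and inhibitors, ccnd1, myca and pcna. So were dkc1, the shelterin genes, wrn, plk2a, perp and btg2. Of 210 list symbols, 161 were in the table. Neighbours were taken by symbol from RefSeq genes of AstMex3_surface, to which 88.7% of expressed genes with a symbol used once matched. 1 listed gene is counted in the lists but is not reported or plotted here.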

Additional observations from a re-analysis of the deposited data

How the results depend on the processing

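Tried were other pseudocounts (0.1, 0.5), filters (none, or 1 TPM in 3 libraries, which leaves out tert and bbc3) and scalings (quantile, median-ratio), a fit with the replicate block, one without a trend, only the later passages, every library dropped in turn, and calls without a fold threshold. sesn1 kept its direction and call in all 15 fits and ccng1 its direction. mdm2 kept its direction in all and lost the call in 5: without the filter (-1.34, limma adjusted p = 0.0613), with the later passages alone (-1.08) and without any 1 CFL library (without 1 library, -1.62 to -1.01). The cause was not tested. The log2 fold changes near 0 changed sign, without a call: mdm4 to -0.035 with median-ratio scaling, -0.074 with quantile normalization and -0.033 with the later passages alone (without 1 library, -0.088 to 0.15); with the later passages alone also cdkn1a to 0.018, rb1 to 0.0099, tert to 0.12 and bbc3 to 0.11. Without 1 library the range was -0.24 to 0.20 for cdkn1a, -0.22 to 0.036 for tert and -0.27 to 0.088 for bbc3. The calls over all genes, 2168 for SFL and 1642 for CFL, changed by setting. With no fold threshold they were 3610 and 2808, and with a pseudocount of 0.1, 3187 and 2492. Over the pathway lists, 7 and 15 became 13 and 26 with no fold threshold; those higher in CFL were 7 without the filter, which tests 27420 genes, 5 with the later passages alone, and 7 to 23 without 1 library. The share of calls higher in SFL was 56.9%, and 49.1% with quantile normalization. With the replicate block there were 2122 calls for SFL and 1634 for CFL, and no call of the 8 genes changed; mdm2 had a limma adjusted p of 0.0261 and sesn1 of 0.0176. Not every library correlated best with its own number. With 5 neighbours on each side in place of 10, the medians moved to 0.19 for mdm2 and 0.28 for rb1. Low TPM and unknown depth limit what can be said of tert and bbc3.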

Other observations

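Within a library, the ratio of mdm2 to mdm4, chosen after the values were seen, was 2.7, 6.94 and 3.6 in SFL replicates 1, 2 and 3, against 11.9, 8.59 and 12.6 in CFL replicates 1, 2 and 3. The libraries of the lines did not overlap in this ratio, although those of mdm4 itself did. Those of mdm2 alone did not overlap either, so the ratio largely restates mdm2 and is not a separate observation. The ratio of sesn1 to sesn2 was 0.41, 1.17 and 3.13 in SFL, against 0.34, 0.18 and 0.23 in CFL, so the balance of the sestrins varied more among SFL cultures than among CFL cultures.

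3 stress-responsive p53 targets that were not called, chosen after their values were seen, varied widely among SFL libraries. plk2a, a stress kinase gene, had 9.86, 53.8 and 76.9 TPM in SFL and 75.3, 43.7 and 34.2 TPM in CFL. perp, a gene for a junction and apoptosis protein, had 39.4, 57.3 and 159 TPM in SFL and 36.1, 42.0 and 32.8 TPM in CFL. btg2, an antiproliferative gene, had 70.7, 30.5 and 135 TPM in SFL and 33.4, 34.3 and 49.8 TPM in CFL. SFL replicate 3 was the highest SFL library in these 3 genes, which belong to the p53 target lists and are counted in them. It was highest in 9 of 17 arrest and survival targets (52.9%) and in 9 of 12 apoptosis targets (75.0%), against 40.1% of all tested genes.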
